A study of Homo sapiens with 48 samples.

Results

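The G2 and mitosis genes examined here are 44 genes whose products bring a cell from the end of DNA replication through chromosome separation to division. They were chosen by name, and each gene was read from 1 probe set of the array: among the probe sets that the platform annotation gives that gene symbol and no other, the one with the highest mean over all arrays. The annotation gives such a probe set to 19775 genes, and 11356 of them had a log2 level above 4 in at least 3 arrays and were tested. All 44 mitotic genes passed that filter, and each stood above 4 in all 48 arrays. For 3 of them, BUB3, CENPA and PTTG1, the probe set is of a type that can hybridise to related transcripts, so their values are less certain.

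The cells were HK-2, a line of proximal tubule epithelium from human kidney that was immortalised with papillomavirus oncogenes. The cells grew on multiwell plates, were dosed when nearly confluent and were read on Affymetrix arrays as 3 biological replicates in each of 16 groups. In the CsA set, CsA and its vehicle were each measured at 12 h and 48 h (12 arrays). In the Fk and Ra set, Fk, Ra and a shared vehicle were measured at 12 h and 48 h (18 arrays), and in the Nnm set a low dose, a high dose and the vehicle were measured at 24 h and 48 h (18 arrays). The labels mark every array of the CsA set with lab 3 and give no laboratory for the other sets. They give the compounds by these short names, mark the concentrations of Nnm as low and high, and state no concentration for the others. The values are log2 intensities, in which a difference of 1 is a doubling of signal. They describe RNA from a whole well, so fewer dividing cells and less mitotic RNA per cell cannot be told apart.

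Mitotic genes form a wave of transcription that starts in late S phase and peaks in G2 and M, and their proteins are then destroyed as the cell divides. Cyclins and CDK1 start mitosis, Aurora and Polo kinases build the spindle, kinetochores attach chromosomes to it, the spindle checkpoint holds the cell until attachment is complete, and the anaphase-promoting complex ends the phase. Because their RNA is scarce in cells that have left the cycle, their levels are widely used to follow the dividing share of a culture. Many of their promoters carry a CHR element, which the DREAM and MuvB complexes bind, near CCAAT boxes, which NF-Y binds.

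The label of the line was compared with its markers. Of 14 proximal tubule markers measured, 6 had a mean level above 4 (PAX8, KRT8, KRT18, CDH6, CDH16 and SLC3A1), and 7 did not exceed 4 in any array, among them the brush border genes LRP2, CUBN, AQP1 and SLC34A1. No leukocyte marker of 5 measured had a mean above 4, while 3 of 8 fibroblast markers (COL1A1, DCN and LUM) and 1 of 7 endothelial markers (PECAM1) did. One array stood apart: in replicate 2 of Ra at 48 h the median over all tested genes was 7.47, against 8.15 to 8.41 in the other 47 arrays. Counts of called members that include that array are given with and without it, with the members whose call changed.

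The promoters of the mitotic genes were read to see what the members share beyond their names. RefSeq windows on GRCh38.p14, from 250 bases before to 50 bases after each annotated start, were at hand for 37 of the 44 genes (47 windows, since some genes have several starts). A CHR, spelled TTTGAA or TTCGAA on either strand, lay in a window of 30 of the 37 genes (81.1%), against 19.5% of 27305 genes in the table. A CCAAT box, spelled CCAAT on either strand, lay in a window of 31 genes (83.8%, against 39.7%), and 26 genes had both in 1 window (70.3%, against 7.85%). More than 1 CCAAT in a window was found for 20 genes (54.1%, against 12.9%). The E2F words TTCGCGC and TTGGCGC were in 6 genes (16.2%, against 6.1%): CCNB1, CDK1, ECT2, KIF18A, MAD2L1 and NUSAP1. Overlaps between hits of different motifs were few: a CHR and a CCAAT overlapped in CDCA8 and MKI67, a CCAAT and an E2F word in ECT2. CENPE and KIF2C held neither CHR nor CCAAT in their windows.

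The 250 bases before the start are shown for 5 genes on which the results below turn, 5′ to 3′ on the strand of the gene, in lower case with CHR and CCAAT words (or the reverse complement ATTGG) in capitals. KIF4A (chrX:70289854-70290103, plus strand) is the gene whose levels followed the other members most closely. PLK1 (chr16:23678639-23678888, plus strand) and SPC25 (chr2:168890431-168890680, minus strand) had the largest falls with time in vehicle. CDC25B (chr20:3796060-3796309, plus strand, the third of its 4 windows) is the gene that followed the others least, and KIF2C (chr1:44739587-44739836, plus strand) is 1 of the 2 with neither motif.
KIF4A: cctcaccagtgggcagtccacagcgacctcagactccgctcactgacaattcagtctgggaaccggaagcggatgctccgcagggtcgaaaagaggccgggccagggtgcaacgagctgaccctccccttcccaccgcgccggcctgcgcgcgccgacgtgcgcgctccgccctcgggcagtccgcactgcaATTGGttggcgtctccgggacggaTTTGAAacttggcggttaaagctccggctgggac
PLK1: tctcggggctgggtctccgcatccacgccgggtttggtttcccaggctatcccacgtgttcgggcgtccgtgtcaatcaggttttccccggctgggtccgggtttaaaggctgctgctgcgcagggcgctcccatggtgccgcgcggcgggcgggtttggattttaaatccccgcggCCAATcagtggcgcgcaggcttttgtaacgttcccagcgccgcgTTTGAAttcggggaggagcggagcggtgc
SPC25: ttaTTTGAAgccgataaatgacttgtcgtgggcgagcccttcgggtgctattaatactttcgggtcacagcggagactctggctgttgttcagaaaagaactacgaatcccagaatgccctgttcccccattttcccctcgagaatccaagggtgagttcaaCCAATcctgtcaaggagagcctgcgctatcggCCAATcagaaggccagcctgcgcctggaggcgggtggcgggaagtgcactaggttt
CDC25B: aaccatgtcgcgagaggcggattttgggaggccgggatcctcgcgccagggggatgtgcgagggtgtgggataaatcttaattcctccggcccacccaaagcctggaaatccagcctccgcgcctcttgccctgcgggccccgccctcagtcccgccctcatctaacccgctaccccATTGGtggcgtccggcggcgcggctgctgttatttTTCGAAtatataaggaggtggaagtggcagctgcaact
KIF2C: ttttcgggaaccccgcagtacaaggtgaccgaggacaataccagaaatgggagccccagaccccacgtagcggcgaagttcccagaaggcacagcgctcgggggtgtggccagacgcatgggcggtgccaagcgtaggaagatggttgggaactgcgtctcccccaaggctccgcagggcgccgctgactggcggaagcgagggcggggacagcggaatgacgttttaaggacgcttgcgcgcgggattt

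Counted back from -1, the base just before the start, the CHR of KIF4A began at -34 with its CCAAT at -58, and in PLK1 they began at -29 and -73. SPC25 had CCAAT words at -88 and -56, and CHR words at -247 and at -3, the latter crossing the start and so not in capitals above. The shown window of CDC25B had a CHR at -38 and a CCAAT at -73, so a CCAAT lay upstream of a CHR as in PLK1 and KIF4A, although CDC25B followed the other members least (r = 0.23 over 16 group means). KIF2C, with neither word, had group means that followed the other members (r = 0.96 over 16 groups). A match of letters is a description of the sequence and no measure of binding.

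The group means of the 44 genes ran from 6.83 to 13.22. Taking the median over the 44 genes in each array and then the mean of 3 arrays, the highest group was the Nnm-set vehicle at 24 h (11.18 ± 0.09, SD, n = 3). The vehicles of the CsA set (11.04 ± 0.05) and of the Fk and Ra set (11.01 ± 0.07) at 12 h came next with Fk at 12 h (11.03 ± 0.32). The groups named in this second place lay within each other's spread. The lowest array of the Nnm-set vehicle at 24 h (11.09) lay above the highest of both 12 h vehicles (11.07 and 11.08) and below that of Fk (11.36). High-dose Nnm at 24 h (10.94 ± 0.05), low-dose Nnm at 48 h (10.94 ± 0.25), CsA at 12 h (10.81 ± 0.14), Ra at 12 h (10.79 ± 0.16) and low-dose Nnm at 24 h (10.75 ± 0.37) formed the middle. Ra at 48 h (10.59 ± 0.40), the Nnm-set vehicle at 48 h (10.57 ± 0.09) and high-dose Nnm at 48 h (10.25 ± 0.70) followed. The lowest 4 groups were the CsA-set vehicle at 48 h (9.91 ± 0.38), Fk at 48 h (9.76 ± 0.61), the Fk and Ra vehicle at 48 h (9.74 ± 0.60) and CsA at 48 h (9.17 ± 0.85). The spread between replicates was wider at 48 h: the median over members of the replicate SD was 0.19 at 12 h and 24 h and 0.45 at 48 h. The sets differ in time points and in vehicle arrays, so levels were not tested across sets.

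**Figure D1:**
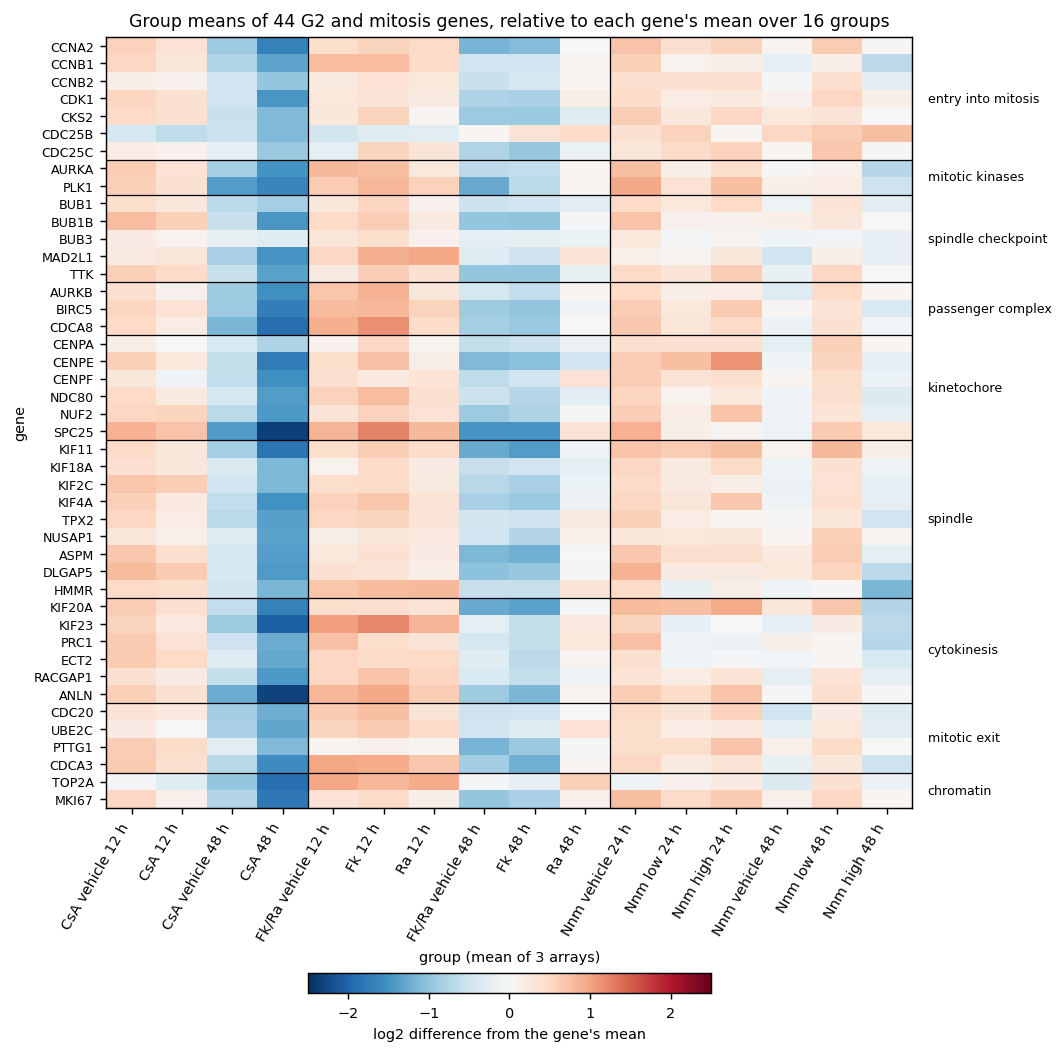
Level of each of the 44 G2 and mitosis genes (rows, grouped by role) in 16 groups (columns), as the mean of 3 arrays minus that gene's mean over the 16 group means, on the log2 scale. The column of CsA at 48 h holds the lowest value of 42 of the 44 genes, and CDC25B is the row that departs most from the rest.

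**Figure D2:**
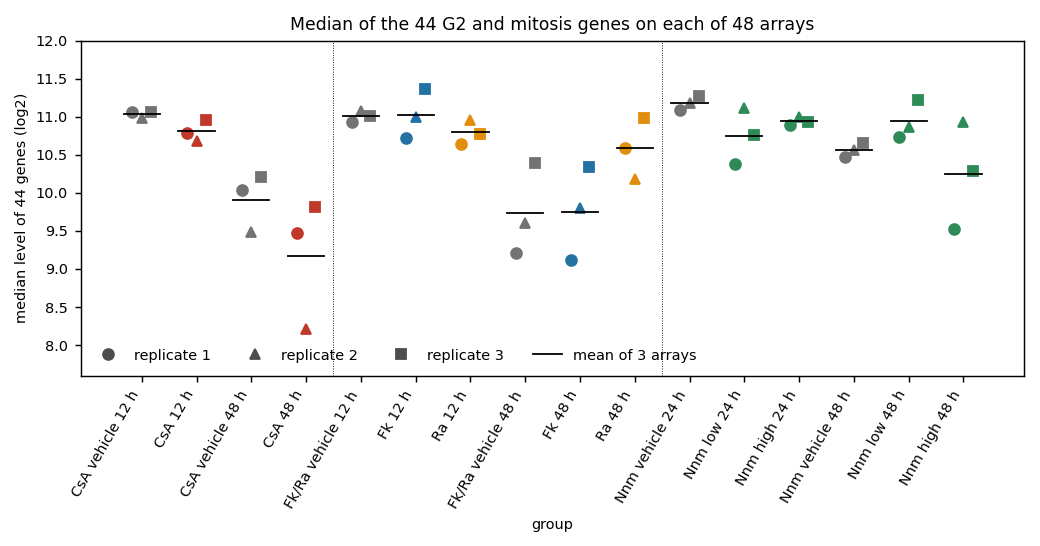
Median log2 level over the 44 members in each of the 48 arrays, by group, with a symbol for each replicate and a line for the mean of 3. The arrays at 48 h, taken over all groups, spread more widely than those at 12 h and 24 h, and the lowest array is replicate 2 of CsA at 48 h, at 8.21.

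Each gene had its lowest group mean at 48 h, and 42 of the 44 had it in CsA at 48 h. The exceptions were CDC25C, a phosphatase that activates CDK1, lowest in Fk at 48 h, and PTTG1 (securin, which holds separase in check until anaphase), lowest in the Fk and Ra vehicle at 48 h. The highest group was at 12 h or 24 h for 38 genes, most often Fk at 12 h (14 genes). Between its highest and lowest group means a member spanned a median of 2.14 log2 units, or 4.41-fold. SPC25, a subunit of the NDC80 complex that binds microtubules at the kinetochore, spanned the most (3.58, 11.9-fold), followed by the cytokinetic ring protein ANLN (9.56-fold) and the central spindle kinesin KIF23 (9.45-fold). BUB3, a checkpoint protein, spanned the least (0.74).

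Without any compound, mitotic RNA was lower at 48 h than at 12 h in both sets that had these time points. In the CsA-set vehicle 33 of the 44 genes fell, with a median over members of -1.17, while 7.56% of all 11356 genes were called lower (limma, Benjamini-Hochberg adjusted p under 0.05 over all genes tested). In the Fk and Ra vehicle 36 fell, with a median of -1.18, against 9.71% of all genes (19.8% in either direction, 10.1% higher). No member was called higher in either. The groups did not overlap for 41 and 40 genes. Here and below, such counts are given without the share of all genes that separated in the same way, so they describe the members only. These comparisons use separate vehicle arrays, and blocking on the replicate number raised the count to 40 in the CsA set, against 12.9% of all genes called lower.

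SPC25 had the largest fall. In the CsA-set vehicle its arrays read 10.30, 10.35 and 10.61 at 12 h and 8.65, 6.69 and 9.05 at 48 h (replicates 1, 2 and 3 here and below). In the Fk and Ra vehicle they read 10.29, 10.47 and 10.46 at 12 h and 7.13, 7.96 and 9.12 at 48 h. All 48 h arrays lay below all 12 h arrays in both sets, replicate 2 being lowest in the first and replicate 1 in the second. The log2 differences were -2.29 ± 0.50 (SE, adjusted p = 0.00268), a 4.89-fold fall, and -2.34 ± 0.50 (adjusted p = 0.00131). PLK1, the Polo kinase that drives centrosome maturation and mitotic entry, was next. Its vehicle arrays went from 9.06, 8.68 and 9.41 to 6.78, 7.01 and 7.40 in the CsA set, and from 8.74, 9.26 and 9.27 to 6.21, 6.94 and 8.46 in the other. The groups were again separate, by -1.99 ± 0.44 (adjusted p = 0.0027) and -1.88 ± 0.44 (adjusted p = 0.00249).

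By role, the entry genes gave 4 and 5 falls of 7 in the CsA set and in the Fk and Ra set. CCNB1, the mitotic cyclin, changed by -1.28 ± 0.32 and -1.25 ± 0.32, CDK1, its kinase partner, by -1.03 and -1.03, and the S and G2 cyclin CCNA2 by -1.47 and -1.61 (log2 differences, all called). CKS2, a small CDK-binding subunit, changed by -1.05 and -1.19, both called. Both kinases fell, and AURKA changed by -1.45 in each set. All 3 chromosomal passenger genes fell: the kinase AURKB changed by -1.29 and -1.15, survivin (BIRC5) by -1.44 and -1.66, borealin (CDCA8) by -1.65 and -1.72. Checkpoint genes fell in 4 and 3 of 5, led by BUB1B (BubR1), which differed by -1.32 and -1.44.

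Among kinetochore genes 3 and 5 of 6 fell, and among spindle motors and regulators 6 and 7 of 9, with KIF11, the motor that pushes the poles apart, at -1.31 and -1.70. Cytokinesis genes fell in 5 of 6 in both sets, and ANLN differed by -1.84 ± 0.39 and -1.71 ± 0.39. All 4 exit genes fell, among them CDC20, the activator of the anaphase-promoting complex (-1.22 and -1.17), and CDCA3, which helps degrade WEE1 (-1.36 and -1.83). Both chromosome genes fell as well: MKI67, the proliferation antigen, changed by -1.25 and -1.34, and the topoisomerase TOP2A by -0.94 (adjusted p = 0.0483) and -1.0. The genes outside the call in both sets were CDC25B, CDC25C, BUB3, CENPA, KIF18A and NUSAP1. The counts rested on single arrays. In the CsA set the count was 3 (PLK1, CDCA8 and ANLN) without replicate 2 of the vehicle at 48 h, and 13 without replicate 3 at 12 h. In the Fk and Ra set it was 13 without replicate 1 of the vehicle at 48 h. Here and below, counts with an array left out lack the share of all genes called in that fit, unless it is printed beside them.

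In the Nnm-set vehicle, from 24 h to 48 h, no member was called, and 0% of all genes were. The median over members was -0.62, and 43 of 44 differences were negative. All 48 h arrays lay below all 24 h arrays in 38 genes, and 11 members reached an unadjusted p under 0.05 (limma). Here and below, counts at an unadjusted p are given without the share of all genes at that threshold, so they describe the members only. With the replicate number as a block CDC20 was called (adjusted p = 0.019), against 0.414% of all genes called lower. CDC20 read 11.37, 11.21 and 11.82 at 24 h and 10.54, 10.22 and 10.75 at 48 h, a clean separation of -0.96 ± 0.34. This interval is shorter than that of the other sets, so the sizes were not compared.

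CsA was compared with its vehicle at each time. At 12 h no member was called (0% of all genes), the median over members was -0.18, 42 of 44 differences were negative, and none reached an unadjusted p under 0.05. At 48 h all 44 genes were lower in CsA, with a median of -0.79 where the median of all genes was 0.00. None was called: 27 members had an unadjusted p under 0.05, the lowest adjusted p was 0.0577 (NUSAP1, limma), and 1.02% of all genes were called (0.299% higher and 0.722% lower). Samples with the same replicate number deviate together in this set. With that number as a block in the fit over all arrays 15 members were called lower, against 2.93% of all genes. With the same block and the CsA set fitted alone, none was called (lowest adjusted p 0.0592, against 0.0793% of all genes called lower), and 36 members had an unadjusted p under 0.05. The block values given below are from the fit over all arrays, and none of those calls of a member held in the set alone. The median over members was -0.69, -1.19 and -0.56 within replicates 1, 2 and 3, so each pair had the same direction and replicate 2 the largest difference. With replicate 1 of CsA at 48 h left out, 6 members were called.

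NUSAP1, which bundles microtubules around chromosomes, read 11.99, 11.32 and 11.74 in the 48 h vehicle and 11.14, 9.69 and 11.14 with CsA. All CsA arrays lay below all vehicle arrays, replicate 2 lowest in both. The difference was -1.03 ± 0.27, with an adjusted p of 0.0104 under the block. PTTG1 read 11.72, 11.31 and 11.72 in vehicle and 10.98, 10.05 and 11.21 with CsA, again without overlap (-0.83 ± 0.26, adjusted p = 0.131, and 0.0154 with the block). MKI67 read 10.05, 9.52 and 10.61 against 9.16, 7.88 and 9.96. Here the groups overlapped, since replicate 3 with CsA stood above replicate 2 of the vehicle, and each CsA array lay below the vehicle array of its own number (-1.06 ± 0.37, adjusted p = 0.182, and 0.028 with the block).

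The 6 largest differences at 48 h were those of CENPE (-1.16), a kinesin that moves chromosomes to the spindle equator, KIF23 (-1.15), ANLN (-1.08), KIF20A (-1.06), MKI67 (-1.06) and NUSAP1. By role the medians ran from -0.45 for AURKA and PLK1 and -0.58 for the entry genes to -0.92 for the kinetochore, -0.90 for the spindle and -1.02 for the cytokinesis genes. CDK1 and TOP2A (-0.95 and -0.92) were called with the block (adjusted p = 0.0368 and 0.0262). PLK1 differed by -0.24 ± 0.44, with replicate 1 higher under CsA than in vehicle (arrays 7.64, 5.62 and 7.21 against 6.78, 7.01 and 7.40). CCNB1 (-0.56), AURKB (-0.65), BIRC5 (-0.84) and CDC20 (-0.34) were lower without a call. The effect at 48 h against that at 12 h gave no call either (median difference -0.63, with 1 member at an unadjusted p under 0.05 and 0% of all genes called).

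Beside the mitotic genes, 41 DNA replication genes gave 22 falls at 48 h of CsA, with a median of -1.23. They were led by the histone chaperone ASF1B (-2.60 ± 0.38, adjusted p = 0.000684), the replication initiator MCM10 (-2.35) and the maintenance methylation factor UHRF1 (-2.0). Of 20 genes that control mitotic entry, CDC25A, the phosphatase that acts on CDK2 and CDK1, fell (-1.0 ± 0.24, adjusted p = 0.0256). Of 30 other kinetochore genes 3 fell (ZWINT -1.35, CENPU -1.10, SPC24 -1.02), and of 19 condensin and cohesin genes 3 (ESPL1, the separase, -1.46, with SMC4 and SMC2). Of 29 other spindle and cytokinesis genes the kinesin KIFC1 fell (-1.36), and none of 17 genes of the anaphase-promoting complex was called. Among 23 regulators E2F1, which switches on S phase genes, fell (-1.13 ± 0.22, adjusted p = 0.0107). FOXM1 and MYBL2, transcription factors of the G2 wave, differed by -0.72 and -1.07, and the CDK inhibitor CDKN1A (p21) by 1.0, which was called with the block (adjusted p = 0.0305) but not without it (0.334).

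No mitotic gene was called with Fk at 12 h or 48 h, and 0% of all genes were at either time. The medians over members were 0.13 at 12 h, with 36 of 44 differences positive, and -0.03 at 48 h, with 26 negative. Before adjustment 1 member at 12 h and none at 48 h was below 0.05. MKI67 at 48 h read 9.16, 9.78 and 10.52 in vehicle and 9.30, 10.19 and 10.48 with Fk, and CDK1 read 10.33, 10.86 and 11.47 and 10.04, 10.93 and 11.56. In both genes and both groups replicate 1 was lowest and replicate 3 highest, and the ranges overlapped almost wholly. The median SE of a member's difference was 0.33, and the largest differences at 48 h were 0.59 ± 0.44 for PLK1 upward and -0.36 ± 0.31 for ECT2 downward. CDC25C had the largest difference at 12 h (0.78 ± 0.38), where replicate 3 with Fk read 9.60 and the other 5 arrays 7.55 to 8.04. Fk at 12 h was the group in which most members peaked, and its replicate 3 had the highest member median of all 48 arrays (11.36).

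With Ra, 10 of the 44 mitotic genes rose at 48 h and none fell, a count that moved with single arrays. At 12 h no member was called (0.0704% of all genes, 0.0528% as higher), the median was -0.09, and none reached an unadjusted p under 0.05. At 48 h all 44 differences were positive, and the median was 0.69. Over all genes 18.5% were called, 2.97% higher and 15.6% lower, and the median was -0.18. Relative to that shift the members stood higher still: with each array centred on its median the members' median was 0.94 and 24 of them were called. Of all called genes 53.2% were then higher instead of 16%, which is a split of the called genes and no share of all genes. Here and below, counts of members with centred or quantile-normalised arrays are given without the share of all genes called. Without replicate 2 of Ra at 48 h, the array that stood apart, the members' median was 0.92 and 8 were called, the calls of PLK1 and MKI67 being lost (adjusted p = 0.0624 and 0.0791), while 3.72% of all genes were called higher and 3.47% lower.

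PTTG1 gave the smallest adjusted p. Its arrays at 48 h read 10.45, 10.40 and 11.21 in vehicle and 11.77, 11.43 and 12.25 with Ra. All Ra arrays lay above all vehicle arrays, 10.69 ± 0.46 against 11.82 ± 0.41 (SD, n = 3), and the rise of 1.13 ± 0.26 (SE, 2.19-fold, adjusted p = 0.00299) was called whichever single array was left out, the only one of the 10 members with that property. PTTG1 has near-identical copies in the genome, which its probe set may also read. SPC25 rose the most: its arrays read 7.13, 7.96 and 9.12 in vehicle and 9.78, 9.59 and 10.34 with Ra. The groups were separate although the vehicle arrays lay far apart (1.83 ± 0.50, 3.56-fold, adjusted p = 0.0106). MKI67 with Ra read 10.87, 10.78 and 11.11, also above the 3 vehicle arrays (1.10 ± 0.37, adjusted p = 0.0338).

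The other genes that rose were PLK1 (1.33), CCNA2 (1.18), KIF11 (1.15), the spindle pole protein ASPM (1.12), the kinetochore protein CENPF (0.99), BUB1B (0.93) and CDK1 (0.92), with adjusted p from 0.0162 to 0.0444. For PLK1 the vehicle read 6.21, 6.94 and 8.46 and Ra 8.79, 8.27 and 8.55, so replicate 3 of the vehicle lay among the Ra arrays and replicate 1 far below them. The only Ra array below that replicate 3 was replicate 2, which read low over all genes. By role the rises numbered 2 of 7 entry genes, 1 of the 2 kinases, 1 of 5 checkpoint, 2 of 6 kinetochore, 2 of 9 spindle, 1 of 4 exit and 1 of 2 chromosome genes, and none of the passenger or cytokinesis genes. KIF20A (1.23, adjusted p = 0.0658), DLGAP5 (1.0) and UBE2C (0.86) came near the threshold, while CCNB1 (0.57), BIRC5 (0.78), TOP2A (0.63), AURKB (0.49) and CDC20 (0.52) were further from it. The count depended on the vehicle arrays: it was 1 without replicate 1 of the 48 h vehicle, 2 without replicate 2 and 23 without replicate 3, and it was 2 without replicate 3 of Ra.

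The 48 h vehicle of this set is itself low, so the level under Ra was also set against the 12 h arrays as values. The member median read 10.94, 11.08 and 11.01 in the 12 h vehicle, 9.22, 9.61 and 10.40 in the 48 h vehicle and 10.59, 10.19 and 10.98 with Ra at 48 h. Replicate 3 of Ra reached the range of the 12 h vehicle, replicate 1 lay between the times, and replicate 2 was below replicate 3 of the 48 h vehicle. That replicate 2 is the array that read low over all genes. Measured from each array's all-gene median, the members stood at 2.66, 2.91 and 2.72 in the 12 h vehicle. On that scale the 48 h vehicle read 0.93, 1.34 and 2.16, and Ra at 48 h read 2.26, 2.72 and 2.74. Replicate 2 of Ra then lay within the 12 h range, and all Ra arrays lay above the 48 h vehicle. The Ra effect at 48 h minus that at 12 h had a median of 0.89 over members and was positive for all 44, and 18 members had an unadjusted p under 0.05. None was called (lowest adjusted p 0.0689, against 3.62% of all genes), and 7 were called without replicate 3 of the 48 h vehicle. Without replicate 2 of Ra at 48 h the median was 1.10 and again none was called (lowest adjusted p 0.0809). Over all genes, 8.52% of the called differences were higher, and 43.0% with arrays centred.

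Other cell cycle genes were also higher with Ra at 48 h. Of 41 replication genes 24 rose and 1 fell (median 0.90), led by ASF1B (1.98 ± 0.38, adjusted p = 0.000694), the origin protein ORC1 (1.96) and cyclin CCNE2 (1.86). Of 29 other spindle and cytokinesis genes 7 rose (KIFC1 1.25, KIF18B 1.22, TROAP 1.0), of 30 other kinetochore genes 4 (SPC24 1.73, HJURP 1.40, KNL1 1.20), and of 19 condensin and cohesin genes 3, with 1 fall. Among entry control genes CDC25A (1.41) and the CDK1-inhibiting kinase WEE1 (1.26) rose and the stress gene GADD45A fell (-1.74). FOXM1 rose (0.98 ± 0.31, adjusted p = 0.027), and MYBL2 (0.93), E2F1 (0.52) and CDKN1A (-0.82) were not called. Without replicate 2 of Ra, 18 replication genes, 9 other spindle and cytokinesis genes, 3 other kinetochore genes and 2 condensin and cohesin genes rose, none of these fell, and the genes named in this paragraph as called were called again.

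**Figure D3:**
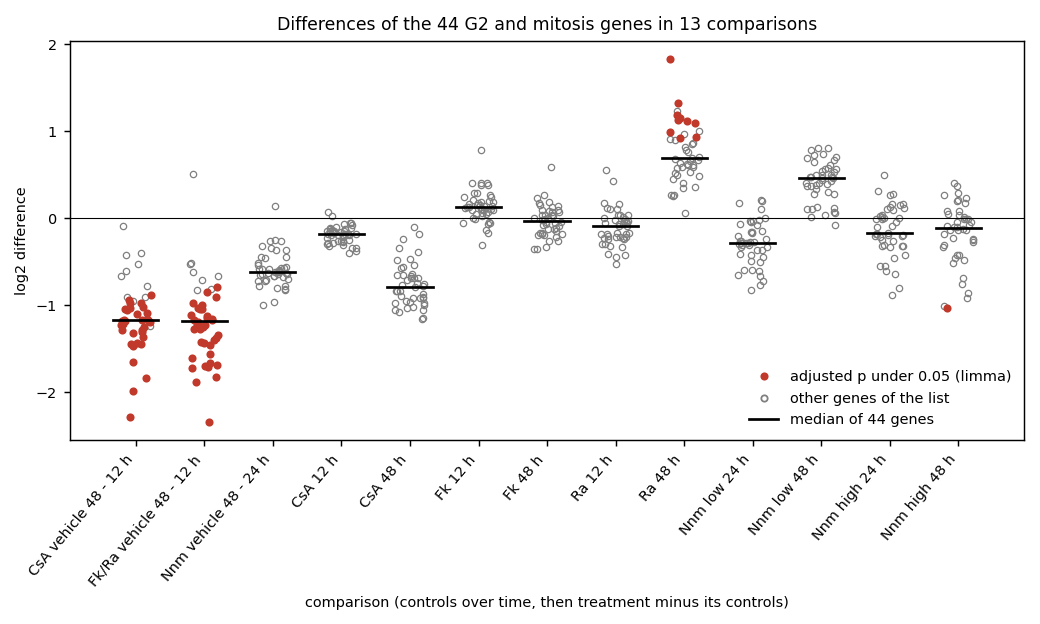
Log2 difference of each of the 44 members in 13 comparisons: 3 of vehicle between times, then 10 of a treatment with the vehicle of its own set and time. Points are genes, lines the median of 44, and filled red points the members called. CsA at 48 h has its points below 0 (median -0.79) and Ra at 48 h above 0 (median 0.69), while Fk at 48 h is centred near 0 (-0.03).

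Fk and Ra were compared directly, since they share times and vehicle. At 12 h no member was called (0.00881% of all genes), the median of Fk minus Ra was 0.24, and none reached an unadjusted p under 0.05. At 48 h 11 of 44 genes were lower with Fk than with Ra, with a median of -0.78 and all 44 differences negative, while 17.3% of all genes were called, 2.12% lower and 15.2% higher. With arrays centred 45.5% of all called genes were higher instead of 87.7%, and 28 members were lower. The member arrays at 48 h read 9.12, 9.80 and 10.34 with Fk and 10.59, 10.19 and 10.98 with Ra. Replicate 3 of Fk lay above only replicate 2 of Ra, the array that read low over all genes. Measured from each array's all-gene median, the members stood at 0.78, 1.49 and 2.08 with Fk. With Ra they stood at 2.26, 2.72 and 2.74, without overlap.

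KIF11 had the smallest adjusted p, with arrays of 7.52, 8.78 and 9.17 under Fk and 9.38, 9.54 and 10.43 under Ra. The groups did not overlap (-1.29 ± 0.35, 2.45-fold lower, adjusted p = 0.0102). SPC25 read 7.00, 8.48 and 8.74 and 9.78, 9.59 and 10.34, also without overlap (-1.83 ± 0.50, adjusted p = 0.0113). The remaining 9 were CDCA3 (-1.25), ANLN (-1.23), ASPM (-1.19), CCNA2 (-1.09), BUB1B (-0.97), CDK1 (-0.96), PTTG1 (-0.90), the checkpoint protein MAD2L1 (-0.86) and NUSAP1 (-0.85). For the best known markers the differences were -0.93 ± 0.37 for MKI67 (adjusted p = 0.077), -0.80 for TOP2A, -0.89 for BIRC5, -0.74 for PLK1, -0.67 for AURKB, -0.59 for CCNB1 and -0.49 for CDC20, none of them called. Without replicate 1 of Fk at 48 h no member was called, without replicate 3 of Fk 24 were, and without replicate 2 of Ra 7 were, with the calls of MAD2L1, NUSAP1, ANLN and CDCA3 lost and 2.28% of all genes called lower. Replication genes were lower with Fk in 30 of 41 (median -1.16), FOXM1 differed by -0.85 (adjusted p = 0.0566) and MYBL2 by -0.91 (0.108). Without replicate 2 of Ra, 23 replication genes were lower and FOXM1 was called (adjusted p = 0.0323).

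The effects of CsA and Ra at 48 h, each against the vehicle of its own set, were compared as a difference of differences. In 31 of 44 genes the CsA effect was lower than the Ra effect, none was higher, and the median difference was -1.56. Of all genes 16.5% were called, 4.67% lower and 11.8% higher, and with arrays centred 49.9% of the called genes were higher instead of 71.7%. Leaving out single arrays gave 9 (without replicate 2 of CsA at 48 h) to 36 members, and 35 without replicate 2 of Ra, which kept all 31 and added CDC25B, CDC25C, KIF18A and KIF23, with 6.74% of all genes called lower. The compounds were run in separate sets, of which the labels mark only the CsA set with lab 3, so a difference between laboratories or in how the sets were run cannot be told apart from the compounds beyond what the vehicles correct.

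SPC25 differed the most, by -2.75 ± 0.71 (SE, adjusted p = 0.00817). Its CsA arrays read 7.65, 5.81 and 8.17 beside a vehicle of 8.65, 6.69 and 9.05, and its Ra arrays 9.78, 9.59 and 10.34 beside 7.13, 7.96 and 9.12. Ra arrays were all above their vehicle, while CsA arrays overlapped theirs. PTTG1 gave the smallest adjusted p (-1.96 ± 0.37, 0.000684), and with ASPM it was 1 of the 2 members whose CsA arrays all lay below and whose Ra arrays all lay above their vehicles. ASPM read 10.14, 8.96 and 9.98 against 11.02, 10.32 and 10.62 for CsA and 11.11, 10.65 and 11.41 against 9.42, 9.92 and 10.46 for Ra (-2.08 ± 0.47, adjusted p = 0.00305).

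The differences were spread over the roles: 4 of 7 entry genes, 1 of 2 kinases, 3 of 5 checkpoint, 2 of 3 passenger, 4 of 6 kinetochore, 7 of 9 spindle, 5 of 6 cytokinesis, 3 of 4 exit and both chromosome genes. Among the largest were KIF20A, the cytokinesis kinesin (-2.29, adjusted p = 0.0182), MKI67 (-2.16, 0.00491), KIF11 (-2.14, 0.0036) and ANLN (-2.05, 0.00974). CDK1 (-1.87), BIRC5 (-1.62) and TOP2A (-1.54) were also called. PLK1 (-1.57, adjusted p = 0.0761), CCNB1 (-1.13, 0.0836), AURKB (-1.14), CDC20 (-0.85), BUB1 (-0.43) and BUB3 (-0.17) were not. Of the other cell cycle genes, 36 of 41 replication genes were called lower, as were FOXM1 (-1.70), MYBL2 (-1.99) and E2F1 (-1.65), and CDKN1A was called higher (1.81, adjusted p = 0.0406). The call of CDKN1A was lost without replicate 2 of Ra (adjusted p = 0.118).

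**Figure D4:**
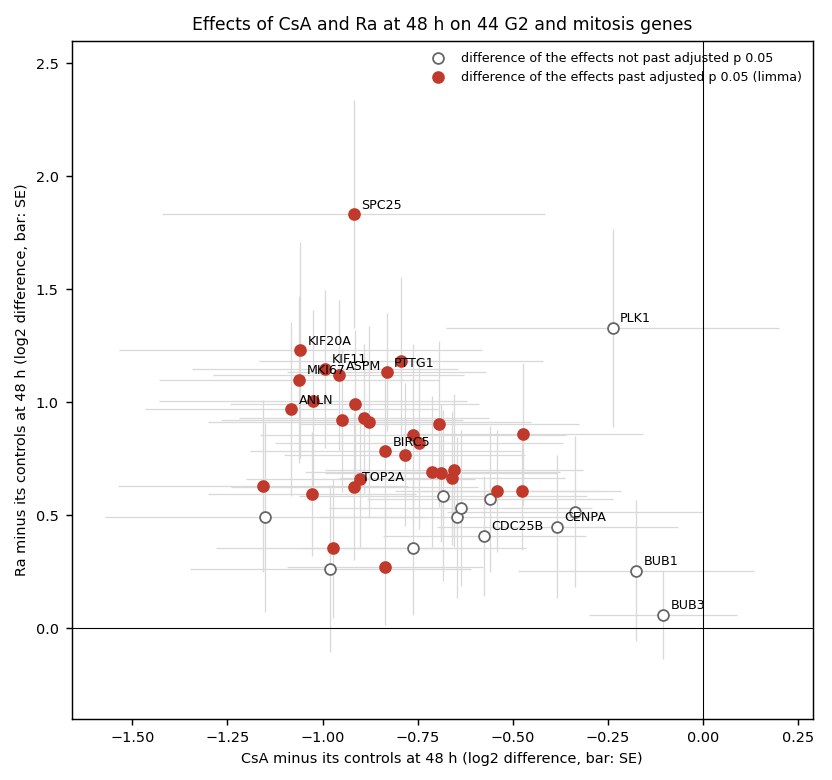
Log2 change of each of the 44 members under CsA (horizontal axis) and under Ra (vertical axis) at 48 h, each against its own vehicle, with SE bars and filled points for members called in the difference of the effects. All points lie left of 0 on the CsA axis and above 0 on the Ra axis, and BUB3 and BUB1 are nearest the origin.

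The CsA effect minus the Fk effect at 48 h had a median of -0.76 and was negative for all 44 genes. No member was called (0% of all genes), and 6 reached an unadjusted p under 0.05. The Fk and Ra effects share their vehicle arrays.

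At the low dose of Nnm the members' median was below 0 at 24 h and above 0 at 48 h, with no call at either time. At 24 h no member was called (8.29% of all genes, 4.71% as lower), the median was -0.28, 39 of 44 differences were negative, and 1 member had an unadjusted p under 0.05. At 48 h again none was called (5.22% of all genes, 2.77% as higher), the median was 0.46, 43 of 44 differences were positive, 22 genes had all treated arrays above all vehicle arrays, and 8 members had an unadjusted p under 0.05 (lowest adjusted p 0.132, CENPA). Same-numbered samples deviate together in this set too. With the number as a block, 1 member was called lower at 24 h, against 9.7% of all genes. At 48 h 5 were called higher, against 6.75% of all genes: AURKB (adjusted p = 0.00894), CENPA (0.0203), CDC20 (0.0252), TOP2A (0.0411) and the checkpoint kinase TTK (0.0496). The median within replicates 1, 2 and 3 was 0.48, 0.29 and 0.60 at 48 h, and -0.37, 0.04 and -0.51 at 24 h.

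AURKB read 8.82, 8.53 and 9.10 in the 48 h vehicle and 9.67, 9.11 and 10.08 at the low dose. Each low-dose array lay above all vehicle arrays, by 0.81 ± 0.36 in the mean (adjusted p = 0.193 without the block). CENPA, the histone that marks centromeres, read 8.39, 8.25 and 8.68 and 9.05, 8.82 and 9.89, again without overlap (0.81 ± 0.32). CDC20 read 10.54, 10.22 and 10.75 and 11.26, 10.57 and 11.74, and here replicate 2 of the low dose lay below replicate 3 of the vehicle (0.69 ± 0.34). KIF23 at 24 h read 9.31, 9.19 and 9.99 in vehicle and 8.14, 9.08 and 8.97 at the low dose, which is lower without overlap, and at 48 h 8.44, 8.89 and 8.80 and 8.95, 9.00 and 9.51, which is higher without overlap. Its difference between the times, 1.21 ± 0.59, was not called (adjusted p = 1). Over members the low-dose effect at 48 h minus that at 24 h had a median of 0.72, with 4 at an unadjusted p under 0.05, none called and 0% of all genes called.

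The high dose of Nnm gave few calls among mitotic genes and many among other genes. At 24 h no member was called against 23.1% of all genes. The median was -0.17, 28 differences were negative, 13 genes had all treated arrays below all vehicle arrays, and PRC1, a microtubule crosslinker of the central spindle, came nearest (-0.88 ± 0.33, adjusted p = 0.0527). PRC1 read 11.05, 11.01 and 11.30 in vehicle and 10.21, 10.54 and 9.97 at the high dose, a clear gap. With the block 2 members were called lower, against 18.1% of all genes.

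At 48 h of the high dose 1 member fell, against 7.88% of all genes called lower and 16.8% called either way. This was HMMR, a spindle and hyaluronan-binding protein, which read 10.51, 10.58 and 10.60 in vehicle and 8.55, 10.89 and 9.15 at the high dose. Replicates 1 and 3 were far below the vehicle arrays and replicate 2 above them (-1.03 ± 0.37, adjusted p = 0.0486). The same split ran through many members: KIF20A read 8.27, 11.09 and 9.36 against a vehicle of 10.43, 10.58 and 10.73, and AURKA 9.76, 11.49 and 10.52 against 11.15, 11.27 and 11.61. The member median at the high dose was 9.53, 10.93 and 10.29, against 10.48, 10.57 and 10.66 in vehicle, so within replicates 1, 2 and 3 the median difference was -0.57, 0.39 and -0.18. With the block 4 members were called lower, against 12.9% of all genes: HMMR (adjusted p = 0.0124), PRC1 (0.017), AURKA (0.031) and the spindle protein DLGAP5 (0.032). Without replicate 2 of the high dose 8 members were called, and the call of HMMR held in 1 of the 6 fits that left out an array.

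High and low doses were compared with each other as well. At 24 h no member was called (0.00881% of all genes), with a median of 0.13 and none at an unadjusted p under 0.05. At 48 h none was called (0.0176% of all genes), the median of high minus low was -0.59, 43 of 44 differences were negative, and 14 had an unadjusted p under 0.05. Without replicate 2 of the high dose 9 were called. The high-dose effect showed no shared change with time (median 0.01, no member at an unadjusted p under 0.05, 0.00881% of all genes called).

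Other cell cycle genes under Nnm gave mixed calls. At the low dose for 48 h the kinetochore gene CENPN (1.02) and the centrosome kinase NEK2 (1.10) rose and SFN, a 14-3-3 protein of the G2 checkpoint, fell (-1.16), and none of 41 replication genes was called. At the high dose for 24 h 12 of 41 replication genes fell, against 12.5% of all genes called lower, led by the polymerase subunit POLA2 (-1.90 ± 0.32, adjusted p = 0.000144), and at 48 h 6 rose and 1 fell, against 8.89% of all genes called higher. SFN fell at both times of the high dose (-1.64 and -1.18), and E2F7 rose at 48 h (1.23). FOXM1, MYBL2, E2F1 and CDKN1A were not called in any comparison of Nnm with its vehicle.

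Over the 16 group means the members followed each other closely. The median Pearson correlation of the 946 pairs was 0.90, 765 pairs were above 0.8 and 2 below 0. These are descriptions over 16 points that share arrays, time points and vehicles. KIF4A, a chromosome-bound kinesin, BIRC5 and ANLN were most like the median of the other members (r = 0.99, 0.99 and 0.98). Of the other 11312 genes tested, whose median r with the members was 0.01, 145 were above 0.9, and the highest were FAM83D (0.99), NCAPG (0.99), CKAP2, DIAPH3, CDCA2 and NCAPH (0.98 each). FOXM1 and MYBL2 had r of 0.94 each, E2F1 0.82 and CDKN1A -0.50.

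The members least like the rest were CDC25B (r = 0.23), TOP2A (0.76) and BUB3 (0.83). CDC25B, a phosphatase that activates CDK1 at the centrosome in early mitosis, did not fall with time in vehicle. In the CsA-set vehicle it read 11.08, 11.02 and 10.48 at 12 h and 10.97, 10.88 and 10.48 at 48 h (-0.09 ± 0.27). In the Fk and Ra vehicle it read 10.82, 11.06 and 10.69 and 11.22, 11.42 and 11.46, where the 48 h arrays were the higher ones (0.51 ± 0.27, adjusted p = 0.182). Its lowest group was CsA at 48 h (10.50, 10.14 and 9.96), and in the Nnm set it stayed between 10.98 and 12.45.

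TOP2A, which untangles sister chromatids, differed from the rest in its level between sets. At 12 h its vehicle arrays read 11.90, 12.01 and 11.75 in the CsA set and 13.01, 12.76 and 12.87 in the Fk and Ra set, and at 24 h in the Nnm set 11.40, 11.94 and 12.08. The Fk and Ra set was the high one, and the vehicle difference of TOP2A between times was negative in each set (-0.94, -1.0 and, without a call, -0.25). BUB3 stayed between 11.61 and 13.04 in all arrays. Its vehicle differences were -0.40 ± 0.19 and -0.52 ± 0.19 (adjusted p = 0.056), its difference under CsA at 48 h -0.11 and under Ra 0.06.

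**Figure D5:**
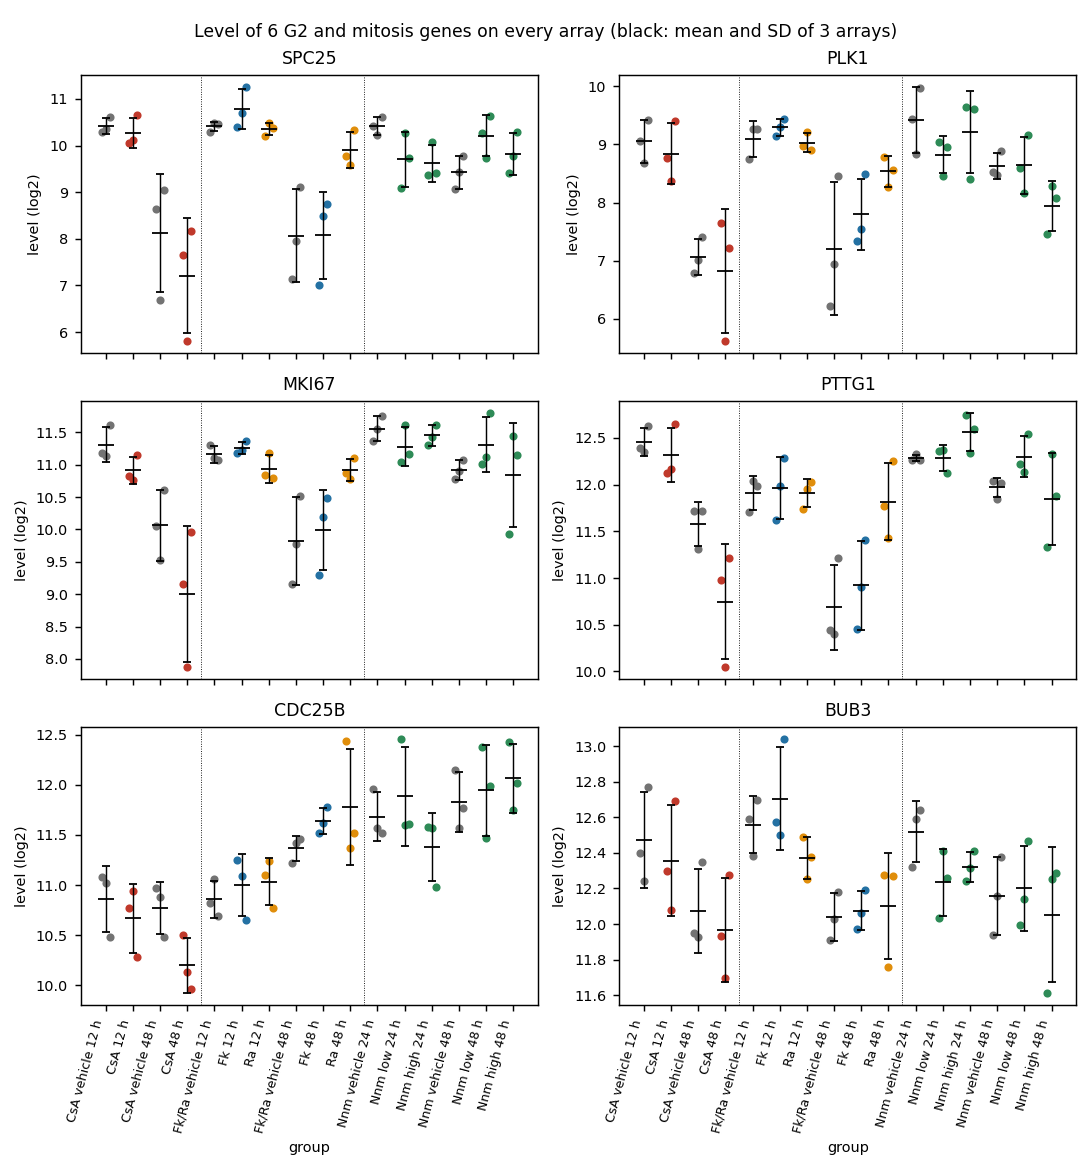
Log2 level of 6 members in each of the 48 arrays by group, with a point for each array and black lines for the mean and SD of 3: SPC25, PLK1, MKI67, PTTG1, CDC25B and BUB3. The means of the first 4 are lower at 48 h than at the earlier time in each vehicle and are higher with Ra than with vehicle at 48 h, CDC25B shows no such drop, and BUB3 stays between 11.61 and 13.04.

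Of the 44 genes, 21 had further probe sets above the filter, 35 in all. These had the same sign as the chosen probe set in all 35 cases for Ra at 48 h, for both vehicle comparisons of 48 h with 12 h and for CsA against Ra, and in 32 for CsA at 48 h, the exceptions being BUB3 and KIF23.

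The regulators of the mitotic wave moved in the vehicles too. From 12 h to 48 h FOXM1 differed by -1.58 ± 0.31 in the CsA set and -1.47 ± 0.31 in the Fk and Ra set, MYBL2 by -1.65 and -1.74, and the repressor E2F8 by -1.88 and -2.17, all called lower. E2F1 was not called (-0.58 and -0.59). CDKN1A was called higher in the Fk and Ra set (1.22, adjusted p = 0.0458) and not in the CsA set (0.67), and the difference between sets was not tested. GADD45A rose in both (1.86 and 2.13) and CDC25A fell in both (-1.96 and -2.25). Of the replication genes 33 and 35 of 41 fell, and of 29 other spindle and cytokinesis genes 21 fell in each set. Other kinetochore genes fell in 12 and 14 of 30, condensin and cohesin genes in 9 of 19 in each, and genes of the anaphase-promoting complex in 3 and 4 of 17.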

How the data were processed

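RNA of HK-2 cells was read on 48 Affymetrix arrays (16 groups of 3). The authors deposited 1 log2 value per probe set and array (54675 probe sets), and per the submitters' processing notes GCRMA made them. Which version was run is not given in the sources used here. GCRMA corrects background by probe sequence and normalises arrays to each other, so a change shared by most genes would be reduced. The deposited arrays were still not on 1 scale. The upper quartile over all probe sets was 6.20 in replicate 2 of Ra at 48 h and 6.85 to 7.24 in the others. Gene names came from the platform annotation: 41091 probe sets had 1 symbol, 1801 several and 11721 were not listed, and 62 control probe sets were left out. No array was scaled again.

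Probe sets with a log2 value above 4 in at least 3 arrays were kept (20960), the one with the highest mean standing for each of 11356 genes. limma 3.58.1 (R 4.3.3) fitted 1 mean per group over all arrays, tested 24 contrasts two-sided and adjusted p by Benjamini-Hochberg over all genes within each, calling under 0.05. The script was tested on simulated data. Replicates are biological per the labels, which name no cultures or days, so p-values refer to the spread between these samples. That spread was pooled for each gene over the 16 groups and is not that of the groups compared. The median replicate SD of the members was 0.19 at 12 h and 24 h and 0.45 at 48 h. An SE or p-value can therefore be too small at 48 h and too large at 12 h and 24 h.

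Same-numbered samples deviated together in the CsA set (18 of 18 pairs with a correlation above 0.1) and in the Nnm set (45 of 45). In the Fk and Ra set they did so only in part (19 of 45, mean correlation 0.10, against -0.05 for differently numbered pairs). Named genes were the called members, the 6 largest changes in each direction, 8 common markers, the member with the highest mean of each role, the 3 members least like the others, up to 3 called genes of each other pathway list and 4 regulators, with repeats left out where they add nothing. CDC25C at 12 h of Fk, TTK, and the members named for being near the threshold or for a change of call were chosen after their values were seen. The members and lists were chosen with earlier results of these data known. Alternatives were no filter, centred arrays, quantile normalisation, the replicate block, the sets alone, the mean of all probe sets and each array left out, with the block on the sets alone added after seeing the data.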

Additional observations from a re-analysis of the deposited data

Results flagged for a closer look

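The effects of CsA and Ra at 48 h differed in the test of the difference itself. This difference (CsA minus Ra, limma, adjusted over all genes) was called lower for 31 of the 44 members, against 4.67% of all genes. The values were -2.75 for SPC25, -2.29 for KIF20A, -2.16 for MKI67, -2.14 for KIF11, -2.08 for ASPM, -2.05 for ANLN, -1.87 for CDK1, -1.62 for BIRC5 and -1.54 for TOP2A. The compounds were run in separate sets, of which the labels mark only that of CsA with lab 3, so laboratory and compound cannot be told apart beyond the use of each set's own vehicle.

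The treated arrays of 2 members lay on opposite sides of their vehicle at the early and late time, without overlap. The share of all genes with this pattern was not counted. TPX2, a spindle assembly factor, read 11.58, 11.84 and 11.67 with Ra at 12 h against 11.87, 11.92 and 11.86 in vehicle, and 11.61, 11.36 and 11.82 with Ra at 48 h against 10.49, 10.90 and 11.34. The difference between its effects was 0.87 and was not called by limma. KIF23 under the low dose of Nnm had a difference between 48 h and 24 h of 1.21, also not called.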

How the results depend on the processing

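Sets of 3 arrays, replicate spread at 48 h and 1 array of Ra that stood apart limit these results. No count of called members and no call of a named member changed direction. The median of all genes did with centred arrays, from -0.18 to 0.07 for Ra at 48 h and from 0.20 to -0.09 for Fk minus Ra. Single members were followed over the settings only where they were called in a comparison, with the common markers followed in every comparison. Of these 4268 combinations, 3808 kept their side of the threshold, 402 lost a call and 58 gained one. Most uncalled members were left out, so this split cannot show whether losses outnumbered gains over all members. Counts of called members that moved by over 1.5 times follow, with the cause not tested except where fewer arrays or other genes were used.

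With the replicate block the counts were 15 for CsA at 48 h, 25 for Ra at 48 h, 1 and 5 for low-dose Nnm at 24 h and 48 h, 2 and 4 for high-dose Nnm, 1 for the Nnm vehicle over time, 27 for Fk against Ra at 48 h and 9 for the Ra effect over time. Of all genes, 5.95% were then called higher for Ra at 48 h, 4.24% lower for Fk against Ra and 1.7% higher for the Ra effect over time. In the Fk and Ra set same-numbered samples deviated together only in part, so whether the number pairs them is uncertain. Pairing changed no other count by over 1.5 times. With the block and only the sets compared, a setting chosen after seeing the data, they were 0, 16, 3 and 8, 4 and 4, 5, 15 and 0 in the same order. Without the filter the counts were 5 for Ra at 48 h, 0 for high-dose Nnm at 48 h, 6 for Fk against Ra at 48 h and 20 for CsA against Ra. With centred arrays they were 24, 28 and 1 for Ra at 48 h, Fk against Ra and the Ra effect over time, and 1 for high-dose Nnm at 24 h. With quantile normalisation they were 21, 24, 1 and 1. With the sets alone they were 4 for Ra at 48 h, 3 for Fk against Ra, 15 for the CsA-set vehicle over time, 1 for Nnm low and 1 for Nnm high at 24 h, and 0 for Nnm high at 48 h. In promoters of 100 bases before to 50 after the start, 2 members held an E2F word. That is 5.41%, against 3.41% of all genes, where the longer window had 16.2% against 6.1%.

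Leaving out each array in turn gave 0 to 6 members for CsA at 48 h, 1 to 23 for Ra at 48 h, 0 to 1 and 0 to 8 for high-dose Nnm at 24 h and 48 h, 3 to 32 for the CsA-set vehicle over time, 13 to 40 for the Fk and Ra vehicle, 0 to 9 for the doses of Nnm at 48 h, 0 to 24 for Fk against Ra at 48 h, 0 to 7 for the Ra effect over time and 9 to 36 for CsA against Ra. The other 14 comparisons gave 0 each time. With 1 array of a group left out, the other groups supply the spread. Shifting each array's member median by its all-gene median, chosen after seeing the data, moved no group by more than its replicate SD.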
